A study of Homo sapiens with 18 samples.

Results

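BT20 is a human triple-negative breast cancer cell line, a tumour line that lacks the usual receptor targets of breast cancer treatment. The data described here are its 6 RNA-seq libraries, of 18 in the series: 3 control libraries and 3 libraries of cells given 20 mM nicotinamide (NAM) for 48 h, taken as the sample labels give them. The cells were parental BT20 in RPMI medium with fetal bovine serum, and the control cells had no NAM. The methods speak of RNA from before and 48 h after treatment, so the controls may have been collected at the start, and the change with NAM cannot then be told apart from that of 48 h in culture. The other libraries, 6 from MDA-MB-468 and 6 from MDA-MB-231, triple-negative lines in DMEM medium, serve below only for comparison. Neither the labels nor the methods say that replicates were separate cultures, so every p measures the spread between these libraries, which may be technical.

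NAM is the amide of niacin (vitamin B3) and the substrate from which the enzyme NAMPT starts the salvage of NAD+, the electron carrier of central metabolism. NAD+ is also used up by sirtuins and PARP enzymes, which release NAM and which NAM inhibits at high concentrations. Many of the largest changes in these libraries lie in the integrated stress response, by which cells meet a shortage of amino acids or unfolded protein in the endoplasmic reticulum (ER). Kinases then phosphorylate the initiation factor eIF2, overall translation slows while ATF4 mRNA is translated more, and the transcription factor ATF4, paired with members of the C/EBP family, binds the C/EBP-ATF response element (CARE) of genes for amino acid synthesis, amino acid uptake and tRNA charging.

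Of 60676 genes in the table, 14965 had an FPKM (fragments per kilobase of gene length, scaled to sequencing depth) of at least 1 in at least 3 of the 6 libraries and were tested by limma on log2(FPKM + 1). At a Benjamini-Hochberg adjusted p under 0.05, 1221 genes (8.16%) rose and 1274 (8.51%) fell, and below "rose" and "fell" are used only in this sense. The counts of gene lists below are to be read against these shares, and many lie near them. With a change of over 0.58 on the log2 scale also asked, 1066 genes (7.12%) were higher and 1216 (8.13%) lower. Leaving out each library in turn left 253 genes that rose (1.69%) and 296 that fell (1.98%) in the fit of all libraries and in all 6 smaller fits. These are called robust below, and in every one of them the 3 NAM libraries lay on 1 side of the 3 controls. This was also so for 1218 of all 1221 genes that rose and 1270 of all 1274 that fell. It follows largely from the call and is no separate support. Of the robust genes, 43 that rose had all controls under the minimum FPKM and 38 that fell had all NAM libraries under it: the filter admitted them only through the group where they are high, so they had to differ, and 210 and 258 others remain. The log2 fold changes are on the log2(FPKM + 1) scale, which understates the change of genes with low values, and their median over all genes tested was 0.02.

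The libraries held 13780438 to 21755168 reads assigned to genes. On the first principal component (58.4% of the variance) the controls lay together between -30.4 and -30.0, and NAM replicates 1, 2 and 3 at 16.7, 26.7 and 47.3. The second component (20.6%) set NAM replicate 2 (34.4) apart from NAM replicate 1 (-29.1). The median SD between replicates was 0.125 in the controls and 0.259 with NAM on the log2 scale. Controls 2 and 3 were closer to each other than any other pair. Their chi-square was 2.8 per gene against 20.5 to 71.0 for the other pairs of a group (1 is sampling noise). Both were therefore kept as separate libraries. All 253 and 296 robust genes kept their call when these controls were averaged as 1, an alternative chosen after seeing the data. Averaging such similar controls is close to leaving 1 of them out, which robust genes had passed by definition. It is thus no separate support. Over all genes, with the minimum change also asked, averaging took the counts from 1066 higher and 1216 lower to 326 and 428. All 11 epithelial markers were expressed, with a summed FPKM that ran from 2140 to 2430 over the controls and from 1530 to 1950 over the NAM libraries. Of the receptors that define triple-negative cancer, PGR was at 0 in every library and ESR1 lay at 0.841 to 1.87 FPKM. ERBB2 RNA was present, at 29.95, 31.73 and 31.47 FPKM in the controls and 24.5, 15.9 and 19 with NAM. No marker of blood cells reached 1 FPKM. Of the vessel markers only CDH5, VE-cadherin, was expressed, at 12.9, 23.6 and 23.0 FPKM in the controls and 8.53, 7.53 and 4.01 with NAM. CDH5 fell (log2 fold change -1.47, adjusted p = 0.0153), a call lost without NAM replicate 3 (adjusted p = 0.0544).

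The promoters printed here belong to robust rising genes of the stress response and of amino acid transport that hold a CARE. They are RefSeq windows (GRCh38.p14) from 250 bases before to 50 bases after the annotated start of transcription, read 5′ to 3′ along the gene's strand. Capitals mark the match to TGATGNAA, on either strand.
CHAC1 (chr15:40953221-40953520, plus strand): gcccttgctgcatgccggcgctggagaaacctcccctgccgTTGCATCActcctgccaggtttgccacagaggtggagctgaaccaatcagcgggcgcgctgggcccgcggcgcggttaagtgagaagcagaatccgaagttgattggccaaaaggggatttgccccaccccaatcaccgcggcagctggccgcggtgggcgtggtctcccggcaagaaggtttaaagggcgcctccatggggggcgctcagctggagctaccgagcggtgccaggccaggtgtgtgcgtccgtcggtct
ATF3 (chr1:212565157-212565456, plus strand): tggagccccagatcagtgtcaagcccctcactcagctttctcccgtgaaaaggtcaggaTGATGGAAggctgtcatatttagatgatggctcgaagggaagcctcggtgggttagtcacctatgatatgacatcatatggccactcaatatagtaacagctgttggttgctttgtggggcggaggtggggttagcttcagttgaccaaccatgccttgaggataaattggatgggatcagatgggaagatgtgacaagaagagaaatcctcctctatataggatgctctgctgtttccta
FGF21 (chr19:48755274-48755573, plus strand): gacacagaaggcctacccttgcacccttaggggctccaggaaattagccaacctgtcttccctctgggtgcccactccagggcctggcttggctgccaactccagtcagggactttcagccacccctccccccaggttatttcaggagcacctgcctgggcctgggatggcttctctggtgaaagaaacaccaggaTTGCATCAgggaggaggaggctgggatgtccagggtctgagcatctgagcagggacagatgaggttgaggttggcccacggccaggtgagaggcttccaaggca
SLC3A2 (chr11:62881449-62881748, plus strand): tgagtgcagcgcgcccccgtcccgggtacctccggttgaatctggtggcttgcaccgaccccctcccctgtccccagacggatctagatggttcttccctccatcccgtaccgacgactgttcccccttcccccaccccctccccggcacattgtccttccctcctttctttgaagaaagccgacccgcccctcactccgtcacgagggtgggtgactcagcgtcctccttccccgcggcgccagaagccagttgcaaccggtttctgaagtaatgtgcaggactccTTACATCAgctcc
SLC38A1 (chr12:46266467-46266766, minus strand): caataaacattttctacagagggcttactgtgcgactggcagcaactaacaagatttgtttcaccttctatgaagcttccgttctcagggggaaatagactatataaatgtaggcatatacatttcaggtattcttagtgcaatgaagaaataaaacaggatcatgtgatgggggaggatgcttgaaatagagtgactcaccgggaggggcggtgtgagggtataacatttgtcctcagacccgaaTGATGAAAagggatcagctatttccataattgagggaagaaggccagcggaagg
Counted from the start site, the first base of the match lies at -209 in CHAC1, -191 in ATF3, -54 in FGF21, 38 in SLC3A2 and -4 in SLC38A1. TGATGNAA occurred in 3.67% of the 27305 promoters of the table and in 1.65% of the 9958 promoters of genes tested. Among robust genes with a promoter in the table it occurred in 17 of 168 that rose (10.1%) and in 1 of 180 that fell (0.556%). The 17 include FGF21, which the filter admitted only through the NAM libraries, and ATF3, CHAC1, the transporters SLC3A2 and SLC38A1, the ER stress gene HERPUD1 and the tRNA synthetases AARS1, CARS1, IARS1, MARS1 and TARS1. The one among the robust falls was GBP1, an interferon-induced GTPase. A match describes these letters only and is no measured binding site, and a promoter without the match may hold the element in other letters or outside the window.

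Genes of the amino acid response formed the list with the highest median in BT20. Of 22 genes tested, 14 rose and none fell, 11 of the rises were robust (12 and 9 without FGF21 and GDF15, which the filter admitted only through the NAM libraries), and the median log2 fold change was 1.01. Without 1 library the number that rose lay between 11 and 15. CHAC1, an enzyme that degrades glutathione, read 5.01, 5.19 and 3.54 FPKM in control replicates 1, 2 and 3 and 29.5, 26.5 and 27.3 with NAM (log2 fold change 2.37, SE 0.17, adjusted p = 0.000601). DDIT3, which encodes the transcription factor CHOP, read 15.5, 11 and 9.94 in the controls and 49.9, 62.8 and 78.6 with NAM (2.35, SE 0.22, adjusted p = 0.00149). For both genes the lowest NAM library stood at more than 3 times the highest control. ATF3, another stress-induced transcription factor, went from 2.44, 2.70 and 2.51 to 15.8, 11 and 22.1 FPKM (2.22, SE 0.23, adjusted p = 0.00195).

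ATF4 itself also rose. Its level was 111, 87.5 and 86.9 FPKM in the controls and 172, 178 and 164 with NAM (log2 fold change 0.90, SE 0.15, adjusted p = 0.00679). CEBPG, a C/EBP partner of ATF4, rose from 14.3 to 17.4 FPKM in the controls to 56.8 to 73.7 with NAM (1.93, SE 0.17), and NUPR1, a stress-induced chromatin protein, from 12 to 18.5 to 27.4 to 30.01 FPKM (1.0). CEBPB and ATF5, which act in the same response, did not pass (log2 fold changes -0.06 and -0.37, adjusted p = 0.911 and 0.191). Of the 4 kinases that phosphorylate eIF2, only EIF2AK4, which encodes the amino acid sensor GCN2, rose (0.54, adjusted p = 0.0486), and it lost the call without any control or without either of NAM replicates 2 and 3 (adjusted p up to 0.142).

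The feedback genes and brakes of the growth kinase mTORC1 all rose, 5 of 5, and 4 of them were robust. DDIT4, an inhibitor of mTORC1, read 24.2, 20.0 and 20.0 FPKM in the controls and 116, 57.2 and 93.3 with NAM (log2 fold change 2.0, SE 0.25, adjusted p = 0.00321). NAM replicate 2 was the lowest treated library and still lay above every control. TRIB3, a pseudokinase that restrains ATF4, rose from 18 to 19 to 53.1 to 71.6 FPKM (1.75, SE 0.17), and SESN2, which senses leucine upstream of mTORC1, from 5.49 to 6.40 to 14.3 to 24.3 FPKM (1.55, SE 0.20). PPP1R15A, the phosphatase subunit that reverses eIF2 phosphorylation, rose by 1.20 on the log2 scale, a call that depended on control replicates 1 and 2 and NAM replicate 3 (adjusted p up to 0.0718 without one of them).

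Of the secreted products, GDF15, a stress hormone, was near the floor in the controls, at 0.376, 0.235 and 0.206 FPKM, and read 4.90, 3.52 and 3.49 with NAM (log2 fold change 1.95, SE 0.18). FGF21, another stress hormone, read 0, 0.0809 and 0.0912 FPKM in the controls and 1.94, 1.19 and 1.36 with NAM (1.25, SE 0.16). Both entered the test only through the NAM libraries, so their values are given as a description. STC2, a secreted glycoprotein, rose by 1.01 on the log2 scale (9.83 to 10.3 FPKM in the controls, 14.6 to 28.8 with NAM), but not without any 1 of the controls or NAM replicate 3 (adjusted p up to 0.0815).

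**Figure D1:**
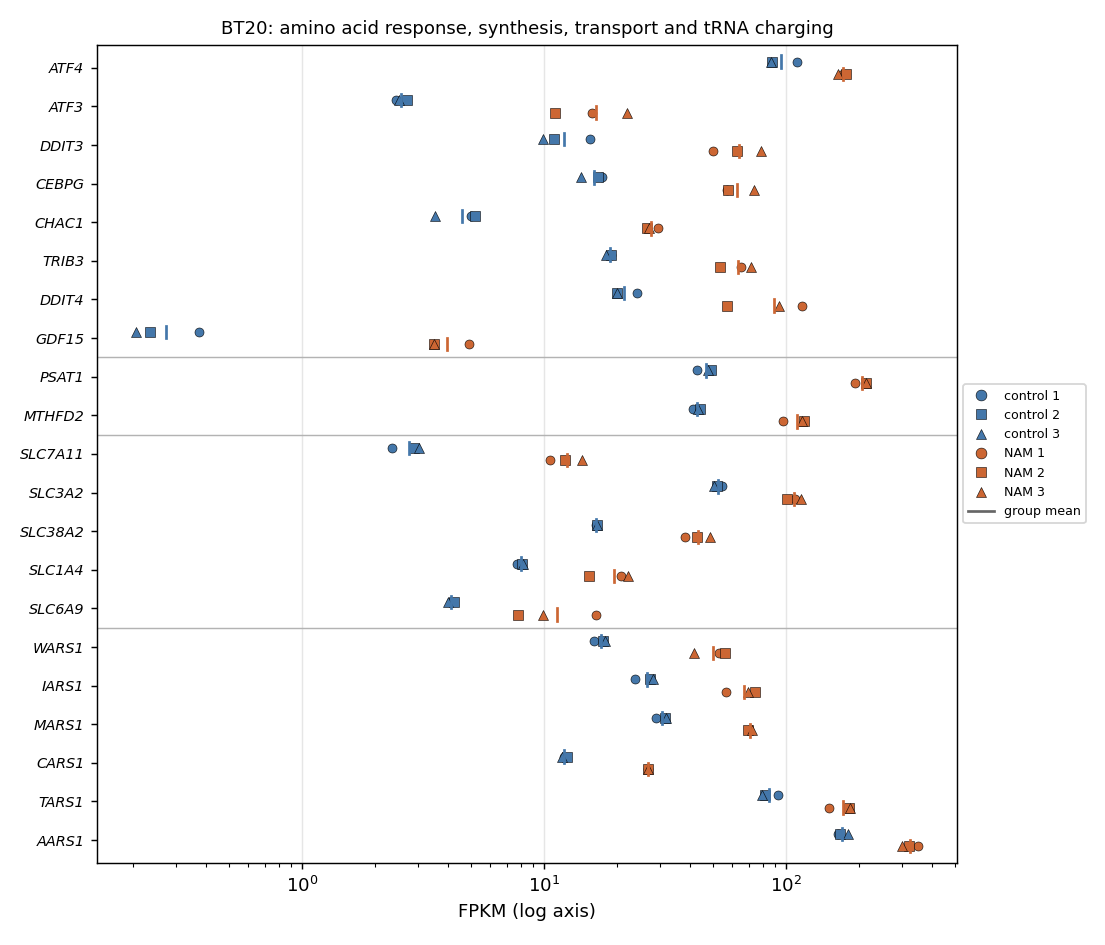
FPKM (log axis) of genes of the amino acid response, amino acid synthesis, transport and tRNA charging in the 3 control (blue) and 3 NAM (orange) BT20 libraries, with replicate numbers as marker shapes and group means as vertical bars. The genes drawn are robust rises chosen for their change, from GDF15 (0.206 to 0.376 FPKM in the controls) to AARS1 (163 to 180). That no NAM library overlaps a control in them follows from this choice, and GDF15 met the filter only through the NAM libraries.

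The genes that make amino acids did not move as a group. Of 23 tested, 6 rose and 6 fell, and the median log2 fold change was -0.05. The serine pathway rose in all 3 genes tested, led by PSAT1, the aminotransferase of serine synthesis, which read 43.0, 49.1 and 47.6 FPKM in the controls and 193, 213 and 213 with NAM (log2 fold change 2.21, SE 0.16, adjusted p = 0.000601). Its NAM libraries lay far above the controls and close to each other. MTHFD2, the mitochondrial enzyme that carries serine-derived carbon on folate, rose from 41.1, 44.2 and 43.2 to 96.8, 119 and 116 FPKM (1.37, SE 0.15, adjusted p = 0.00247). PHGDH and PSPH, the first and last enzymes of serine synthesis, rose by 0.69 and 0.79, but both calls were lost without control replicate 2 or 3 (adjusted p up to 0.103).

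In the other direction, PYCR3, the cytosolic enzyme of the last step of proline synthesis, read 17.9, 21.3 and 18.4 FPKM in the controls and 7.32, 5.78 and 3.08 with NAM (log2 fold change -1.73, SE 0.26, adjusted p = 0.00582). ALDH1L1, a cytosolic folate dehydrogenase, fell from 6.61 to 6.90 FPKM to 3.03 to 3.40 (-0.94, SE 0.15, adjusted p = 0.00603). The mitochondrial folate enzyme MTHFD2 and the cytosolic ALDH1L1 thus moved in opposite directions. Without 1 library 2 to 7 genes of the list rose, the fewest without control replicate 2 (2) or 3 (3), and 3 to 7 fell, 3 each without control replicate 1, 2 or 3. ASNS, asparagine synthetase, lay below the filter at 0.0583, 0.167 and 0.126 FPKM in the controls and 0.697, 0.404 and 0.879 with NAM, and was not tested. Other annotated genes overlap 49.3% of the exon bases of ASNS, so its values are uncertain.

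Amino acid transporters rose in 9 of 19 genes tested, and 1 fell (median log2 fold change 0.66). SLC7A11, the cystine importer, read 2.36, 2.91 and 3.04 FPKM in the controls and 10.5, 12.2 and 14.4 with NAM (log2 fold change 1.80, SE 0.16, adjusted p = 0.00137). SLC3A2, the chain that SLC7A11 and SLC7A5 share, rose from 54.2, 51.8 and 50.3 to 109, 101 and 115 FPKM (1.06, SE 0.15, adjusted p = 0.00427). SLC7A5, the leucine carrier LAT1, read 94.0, 98.5 and 97.9 FPKM in the controls and 322, 124 and 278 with NAM, and its call (1.26, adjusted p = 0.0382) was lost without any control or without either of NAM replicates 1 and 3 (adjusted p up to 0.158).

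The neutral amino acid carriers SLC38A2 (16.4 to 16.5 FPKM in the controls, 38.1 to 48.6 with NAM; log2 fold change 1.37), SLC1A4 (7.73 to 8.19, then 15.4 to 22.2; 1.17) and SLC38A1 (8.87 to 10.8, then 17.9 to 26.6; 0.98) and the glycine carrier SLC6A9 (4.0 to 4.25, then 7.83 to 16.4; 1.19) were robust rises. SLC43A2, a carrier of large neutral amino acids, was the only one to fall, from 3.29, 3.87 and 3.75 FPKM to 1.52, 1.27 and 1.88 (-0.90, SE 0.15, adjusted p = 0.0071), while SLC43A1 of the same family had 0.170 to 0.263 FPKM in the controls and 1.17 to 1.61 with NAM (0.96), and met the filter only through the latter, so that 8 rises remain without it. Leaving out 1 library left 7 to 10 transporters that rose.

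The tRNA synthetases, which charge tRNAs with amino acids, rose in the cytosolic set. Of the 20 cytosolic enzymes 11 rose and 1 fell (median log2 fold change 0.73), while of 16 mitochondrial enzymes tested none rose and 1 fell (median -0.11). WARS1, the cytosolic tryptophan enzyme, read 16, 17.6 and 17.8 FPKM in the controls and 52.6, 56.0 and 41.6 with NAM (log2 fold change 1.52, SE 0.16, adjusted p = 0.00228). MARS1, for methionine, rose from 28.9, 31.5 and 31.9 to 70.1, 69.6 and 72.1 FPKM (1.22, SE 0.15, adjusted p = 0.0030), and AARS1, for alanine and among the most abundant, from 163, 166 and 180 to 350, 321 and 302 (1.08, SE 0.16, adjusted p = 0.0053). The spread of MARS1 between NAM libraries was under 3 FPKM. IARS1, CARS1, TARS1, GARS1 and YARS1 were the other robust rises, with log2 fold changes from 0.95 to 1.35.

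VARS1, for valine, was the only cytosolic enzyme to fall, at 40.0, 42.2 and 43.1 FPKM in the controls and 30.6, 16.2 and 19.6 with NAM (log2 fold change -0.90), a call lost without any control or without either of NAM replicates 2 and 3 (adjusted p up to 0.113). The mitochondrial isoleucine, threonine and tyrosine enzymes IARS2, TARS2 and YARS2 had log2 fold changes of 0.11, -0.19 and 0.01. SARS2 fell by 0.60 on the log2 scale, not without any control or NAM replicate 3 (adjusted p up to 0.152), it met the filter only through the controls, and 48.2% of its exon bases overlap another gene. TGATGNAA was found in 6 of 16 promoters of cytosolic enzymes (37.5%) and in 1 of 14 of mitochondrial ones (7.14%), beside 1.65% of promoters tested.

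Of the ER chaperones and genes of the unfolded protein response, 6 of 29 rose and 4 fell (median log2 fold change 0.24). The 4 robust rises were genes of ER-associated degradation, oxidative folding and ER stress sensing. HERPUD1, which helps extract proteins for degradation, read 16.2, 14.9 and 15.2 FPKM in the controls and 34.0, 39.5 and 32.3 with NAM (1.17, SE 0.15, adjusted p = 0.00338). SEL1L, the partner of the ER ubiquitin ligase HRD1, rose from 6.01 to 6.98 FPKM to 12.7 to 20.1 (1.10), ERO1B, an oxidase of disulphide formation, from 3.05 to 3.66 to 6.37 to 10.3 (0.97), and ATF6, an ER stress sensor, from 13.3 to 14.9 to 23.2 to 29.2 (0.89). ATF6B, CALR (calreticulin), SDF2L1 and CRELD2 fell by 0.53 to 0.85 on the log2 scale. The number of falls in the list was 1 when control replicate 1, control replicate 3 or NAM replicate 3 was left out, 0 without control replicate 2 and 5 without NAM replicate 1, and 9 genes rose without NAM replicate 1.

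Cytosolic and mitochondrial heat shock proteins showed no robust change. Of 22 tested, 2 rose, the mitochondrial chaperonin HSPD1 (128, 110 and 112 FPKM in the controls, 155, 210 and 227 with NAM) and the protease YME1L1, and 3 fell, among them HSPA1A, the inducible HSP70 (87.6, 70.9 and 72.9 FPKM, then 47.7, 43.4 and 28.9; log2 fold change -0.89, adjusted p = 0.0201). Each of these 3 named calls was lost without any control or without NAM replicate 3 (adjusted p up to 0.133). HSP90AB1 did not pass, at 399 to 444 FPKM in the controls and 298 to 494 with NAM.

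Genes of cell division fell in the greatest numbers. DNA replication genes fell in 24 of 48, mitotic and spindle genes in 27 of 45 and homologous recombination and Fanconi repair genes in 14 of 33, with none rising and medians of -0.72, -0.93 and -0.51 on the log2 scale. POLA2, a subunit of DNA polymerase alpha and 1 of the 24, met the filter only through the controls. MCM2, a subunit of the replicative helicase, read 54.1, 73.3 and 71.4 FPKM in the controls and 21.9, 24.7 and 13.1 with NAM (log2 fold change -1.69, SE 0.26, adjusted p = 0.00582). LIG1, the ligase that joins Okazaki fragments, fell from 22.7, 24.3 and 25.6 to 10.2, 8.38 and 4.94 FPKM (-1.56, SE 0.24, adjusted p = 0.00613). MCM5 (-1.65), ORC1 of the origin recognition complex (-1.64) and POLD1, the catalytic subunit of DNA polymerase delta (-1.44), were further robust falls.

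PLK1, a kinase of mitotic entry and spindle assembly, read 31.6, 35.7 and 34.8 FPKM in the controls and 7.59, 17.8 and 5.99 with NAM (log2 fold change -1.75, SE 0.33, adjusted p = 0.0112). NAM replicate 2 was the highest treated library of PLK1, as it was of the mitotic kinesin KIF2C (11.4, 22.1 and 9.79 with NAM, 39.4 to 48.8 in the controls; -1.64) and of FAM83D, a spindle protein (19.3, 37.6 and 15.4 with NAM, 71.0 to 88.3 in the controls; -1.79). ESPL1, the protease separase, fell by 1.48 on the log2 scale and MYBL2, a transcription factor of the G2 phase, from 184, 176 and 183 to 110.5, 89.6 and 68.7 FPKM (-1.0, SE 0.19, adjusted p = 0.0108). CDK1, the kinase that drives mitosis, did not pass, at 33.0, 30.4 and 28.5 FPKM in the controls and 13.2, 29.2 and 18.3 with NAM (adjusted p = 0.117).

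By library, the medians of these lists against the control mean were -0.79, -0.32 and -1.05 for replication, -1.39, -0.36 and -1.10 for mitosis and -0.57, -0.24 and -0.69 for repair in NAM replicates 1, 2 and 3. NAM replicate 2 was thus the weakest in all 3 lists, and without it 37, 41 and 20 genes fell. Without control replicate 1, 2 or 3 the counts were 12, 12 and 13 for replication, 10, 7 and 7 for mitosis and 4, 4 and 4 for repair, without NAM replicate 1 they were 20, 15 and 7, without NAM replicate 3 15, 6 and 5, with controls 2 and 3 averaged 12, 8 and 4, and with no filter on low FPKM 3 in each list. Robust were 9, 4 and 4 genes.

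Of the repair genes, PIF1, a helicase of telomeres and stalled forks, read 6.36, 8.64 and 7.57 FPKM in the controls and 0.873, 1.71 and 1.12 with NAM (log2 fold change -1.96, SE 0.19, adjusted p = 0.00151). RECQL4, a helicase of replication initiation that no list held, fell from 30.4, 32.0 and 29.0 to 11.3, 5.53 and 6.33 FPKM (-1.91, SE 0.24, adjusted p = 0.00321), and UHRF1, which keeps DNA methylation through replication, from 23.2, 27.5 and 25.1 to 8.52, 6.47 and 3.95 (-1.90, SE 0.25, adjusted p = 0.00347). In each of these genes all NAM libraries lay far below the lowest control. RAD54L of homologous recombination (-1.38) and FANCG and FANCA of the Fanconi complex (-1.24 and -1.02) were the other robust repair genes.

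In the promoters of replication genes, the E2F letters TTTGGCGC or TTTCGCGC occurred on either strand in 10 of 40 (25%), beside 2.08% of promoters of genes tested, and in 6 of the 20 that fell, those of MCM2, MCM7, GINS1, POLA2, POLE and POLE2. The cell cycle homology region letters TTTGAA occurred in 23 of 38 promoters of mitotic genes (60.5%), beside 9.54%, and in 12 of the 23 that fell (52.2%). E2F factors and the MuvB complex, which bind such elements, are known to time the genes of the S and G2 phases. In both lists the genes that fell held the letters at about the share of the whole list.

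Around the entry into S phase, 4 of 22 genes of G1 control fell and 1 rose, with 2 falls without any 1 of the controls and 2 rises without NAM replicate 1 or 2. GADD45A, a stress-induced inhibitor of the cell cycle, read 8.68, 8.42 and 6.97 FPKM in the controls and 20.2, 14.5 and 27.0 with NAM (log2 fold change 1.23, SE 0.22, adjusted p = 0.00951). CDKN2C, the CDK4 and CDK6 inhibitor p18, went the other way, from 51.5, 56.7 and 55.5 to 16.3, 21.9 and 11.5 FPKM (-1.68, SE 0.23, adjusted p = 0.00409), as did E2F2 (-1.38). CDKN1A, which encodes the inhibitor p21, did not pass, at 21.6, 12.4 and 12.9 FPKM in the controls and 28.5, 19 and 37.8 with NAM (adjusted p = 0.0656). MYC, a transcription factor of growth, rose from 13.3, 14.1 and 13.3 to 32.9, 24.4 and 27.6 FPKM (1.02, SE 0.16, adjusted p = 0.00625), and MXI1, which opposes MYC on DNA, from 1.15 to 1.52 FPKM to 3.37 to 3.96 (0.94).

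**Figure D2:**
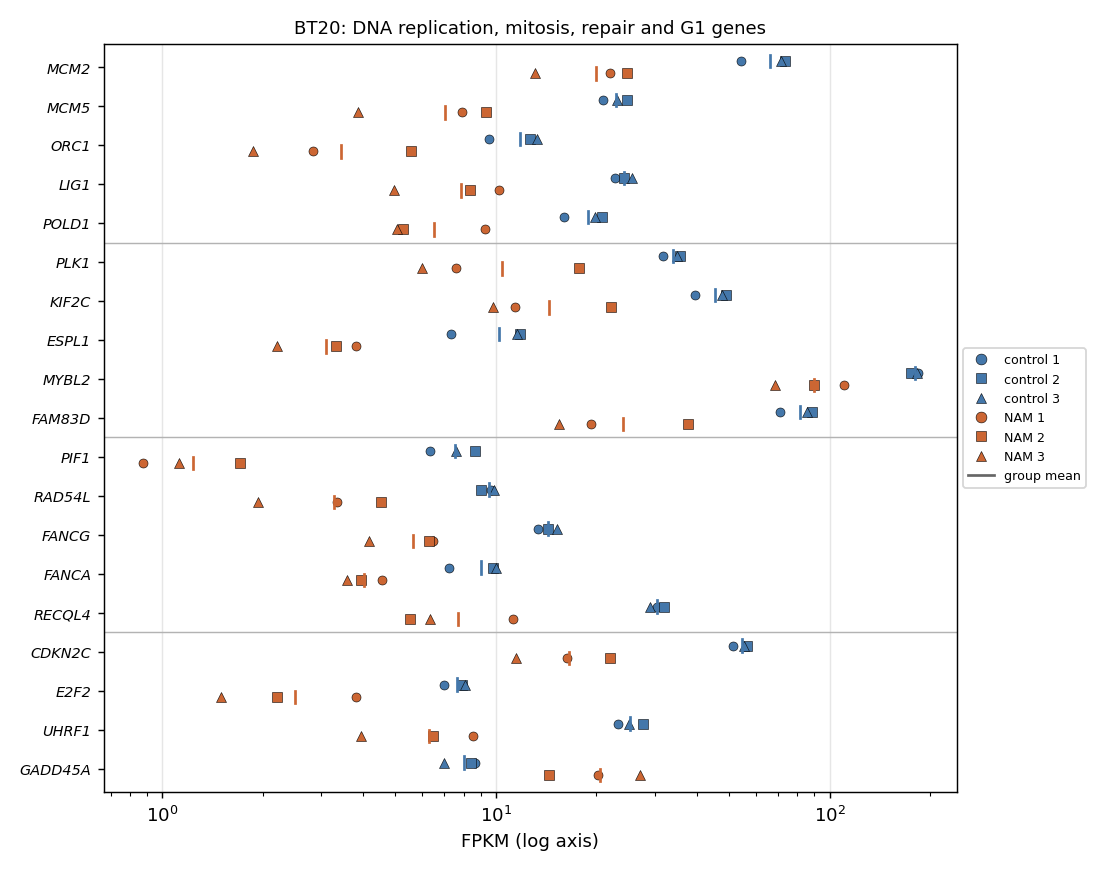
FPKM (log axis) of replication, mitosis, repair and G1 genes in the 3 control (blue) and 3 NAM (orange) BT20 libraries, with replicate numbers as marker shapes and group means as vertical bars. All lie lower with NAM except GADD45A, and NAM replicate 2 (square) is the highest treated library of PLK1 (17.8 FPKM) and KIF2C (22.1).

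Lipid genes moved singly. SREBF1, the transcription factor that drives fatty acid and sterol synthesis, read 25.5, 22.5 and 20.5 FPKM in the controls and 7.91, 4.42 and 4.79 with NAM (log2 fold change -1.86, SE 0.21, adjusted p = 0.00248). MVD, a decarboxylase of the mevalonate pathway, fell from 27.7, 19.3 and 18.6 to 11.1, 9.53 and 7.98 FPKM (-1.10, SE 0.20, adjusted p = 0.00967). Of 29 genes of cholesterol synthesis and uptake 4 fell, 3 of them robust, and 2 rose. Without NAM replicate 1 or 2, 6 and 7 genes of this list fell, and rises numbered 6 without NAM replicate 1, 1 without NAM replicate 2 and 0 without any other library.

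ACSS2, which makes acetyl-CoA from acetate, was the robust rise in fatty acid synthesis, from 22.6, 23.1 and 23.5 to 51.2, 36.7 and 43.6 FPKM (log2 fold change 0.93, SE 0.17, adjusted p = 0.00979). The desaturase SCD (-1.14) and fatty acid synthase FASN (-1.09) fell, SCD not without control replicate 1 or NAM replicate 3 and FASN not without any control or NAM replicate 3 (adjusted p up to 0.0710 and 0.0962), and the falls in that list numbered 1 without control replicate 1 and 0 without NAM replicate 3. Of 27 genes of fatty acid oxidation 6 rose and 2 fell (median -0.01). PDK4, the kinase that turns pyruvate away from oxidation, rose from 1.32, 0.913 and 0.907 to 3.18, 3.36 and 3.42 FPKM (1.09, SE 0.16, adjusted p = 0.00564), and ACSL3, which activates fatty acids, from 6.25 to 7.44 FPKM to 11.7 to 16.5 (0.95). None of the 13 enzymes of beta oxidation tested rose, and ACADVL and ACAA1 fell (-0.64 and -1.06), ACAA1 not without control replicate 1 (adjusted p = 0.0506) and ACADVL not without replicate 2 or 3 of either group (up to 0.165). The rises in this list numbered 2 without control replicate 2 or 3 and 3 without NAM replicate 3, and the falls 1 without any control or NAM replicate 3. CPT1A, the gate of fatty acid entry into mitochondria, did not pass (0.32, adjusted p = 0.19). Of 60 glycerolipid and sphingolipid genes, 3 rose and 4 fell, and only GDPD1, a lysophospholipase D, was robust (2.42 to 3.30 FPKM, then 6.14 to 7.05; 0.93). In that list 7 rose and 11 fell without NAM replicate 1, and at most 2 rose and 1 fell without any control or NAM replicate 3.

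Genes that handle the added vitamin changed little, with 1 exception. Of 30 genes of NAD synthesis and use 2 rose and 1 fell (median log2 fold change 0.23). NAPRT, which makes NAD+ from nicotinic acid rather than from NAM, read 56.3, 50.4 and 44.1 FPKM in the controls and 18.6, 15.5 and 9.93 with NAM (-1.71, SE 0.23, adjusted p = 0.00383), a robust fall. NAMPT, which uses NAM, did not pass, at 30.9, 32.2 and 30.7 FPKM in the controls and 33.5, 49.8 and 48.5 with NAM (0.50, adjusted p = 0.086). NNMT, which methylates NAM for clearance, did not pass either (-0.45, adjusted p = 0.0697). The mitochondrial NAD+ carrier SLC25A51 (0.49) and PARG, which removes poly(ADP-ribose) (0.54), rose at adjusted p = 0.0485 and 0.0499, neither of them without any 1 of the controls or NAM replicate 2 or 3, while without NAM replicate 1 5 genes of the list rose. The deacetylase SIRT1 had 4.11 to 4.50 FPKM in the controls and 5.67 to 7.32 with NAM (0.39, adjusted p = 0.104).

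The respiratory chain stood near the median of all genes. Of 34 nuclear complex I genes 1 fell, NDUFV1 (log2 fold change -0.75), of 41 genes of complexes II to V 1 rose, the cytochrome c gene CYCS (0.76), and of the 15 genes of mitochondrial DNA tested none passed (range -0.07 to 0.30). NDUFV1 lost its call without any control or NAM replicate 3 (adjusted p up to 0.0917) and CYCS also without NAM replicate 2 (up to 0.135). Without NAM replicate 1, 5 complex I genes and 3 of complexes II to V rose. Of 28 genes of the TCA cycle and pyruvate entry 3 fell, a share near the 8.51% of all genes tested. IDH2, the mitochondrial isocitrate dehydrogenase that yields NADPH, fell most, from 148, 150 and 144 to 85.3, 82.6 and 52.8 FPKM (-1.0, SE 0.20, adjusted p = 0.013, and 0.0554 without control replicate 2). IDH1, its cytosolic relative, read 138 to 143 FPKM in the controls and 169 to 222 with NAM and did not pass (0.48, adjusted p = 0.0659), and the TCA list had at most 1 fall without any control or NAM replicate 3 and 4 rises without NAM replicate 1.

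In glucose use and the hypoxia response, 7 of 36 genes rose and 1 fell. The robust rises were ARRDC4, a glucose-induced arrestin (5.87 to 7.89 FPKM, then 16.7 to 27.1; log2 fold change 1.47), ENO2, an enolase (2.50 to 3.82, then 6.65 to 13.1; 1.40), SLC16A1, a lactate carrier (13.9 to 16.4, then 30.8 to 41.4; 1.22), and P4HA1, a collagen prolyl hydroxylase (0.92). Rises numbered 4 without NAM replicate 3, and falls 8 without NAM replicate 1. Of 35 glutathione and antioxidant genes 4 rose and 2 fell, and 2 rose and 1 fell without control replicate 2 or 3 and 3 rose and 1 fell without NAM replicate 3. TXNRD1, thioredoxin reductase, rose from 82.8, 92.2 and 88.3 to 184, 172 and 208 FPKM (1.15, SE 0.17, adjusted p = 0.00577), and OPLAH, an enzyme of the glutathione cycle, fell from 3.63, 5.38 and 4.71 to 1.70, 1.11 and 0.969 (-1.32, SE 0.18, adjusted p = 0.00427). GCLM, a subunit of the enzyme that starts glutathione synthesis, rose (0.82), though not without control replicate 2 or 3 (adjusted p up to 0.0542), and its partner GCLC did not pass (0.29).

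The largest falls of named genes were in TSPAN1, SPDEF and UPK3B. TSPAN1, a tetraspanin of the cell surface, read 52.5, 46.8 and 45.5 FPKM in the controls and 7.56, 11.2 and 3.05 with NAM (log2 fold change -2.71, SE 0.35, adjusted p = 0.00349). UPK3B, a uroplakin of apical membranes, went from 24.9, 25.3 and 25 to 5.32, 4.60 and 2.72 FPKM (-2.37, SE 0.22, adjusted p = 0.00137). SPDEF, a transcription factor of secretory and luminal epithelium, went from 59.6, 45.8 and 44.7 to 10.0, 10.7 and 4.71 (-2.47, SE 0.28, adjusted p = 0.00248). Of 19 luminal and epithelial transcription factors 4 fell, SPDEF being the robust one (the count was 1 without NAM replicate 3 or either of control replicates 1 and 2, and 2 without control replicate 3), while XBP1 and ELF3 did not pass (-0.17 and 0.01). Of 34 genes of junctions and the apical surface 8 fell, 4 of them among the 10 apical genes, and 1 rose, CLDN1 (1.36; not without control replicate 1 or NAM replicate 3, adjusted p up to 0.0725). Without control replicate 1 or NAM replicate 3, 3 of the list fell, and 4 each without control replicate 2 or 3.

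KRT23, an inducible keratin, was the robust fall of 11 keratins tested (13 to 14.3 FPKM, then 2.37 to 6.30; log2 fold change -1.46), and the simple epithelial keratins KRT8, KRT18 and KRT19 did not pass (-0.36, -0.13 and -0.38). IVL, involucrin of the cornified layer, read 17.4, 25.5 and 24.8 FPKM in the controls and 4.96, 5.23 and 7.33 with NAM (-1.80, SE 0.20, adjusted p = 0.00247). CSTA, cystatin A, another protein of that layer, rose from 1.15, 0.719 and 1.04 to 4.73, 3.77 and 9.16 FPKM (1.74). S100A8 and S100A9, the subunits of calprotectin, fell by 1.78 and 1.15 on the log2 scale, and S100A9 was the most abundant of all robust changes named here, at 1035, 883 and 893 FPKM in the controls and 440.3, 408 and 406 with NAM. Their relative S100P rose from 228, 137 and 149 to 332, 318 and 424 FPKM (1.21, SE 0.20, adjusted p = 0.00766). TRIP6, a LIM protein of focal adhesions, fell by 1.45, one of 3 falls among 45 adhesion and matrix genes, of which none rose, and the only one without any control or NAM replicate 3 (8 fell without NAM replicate 1). Over all genes tested 8.51% fell.

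Genes of innate immunity fell more often than they rose. Of 31 genes of nucleic acid sensing and the interferon response 9 fell and 2 rose (median log2 fold change -0.31). XAF1, 1 of the 9, met the filter only through the controls, so 8 falls remain without it. Of 25 genes of the NF-kB pathway 7 fell and 1 rose. OAS3, an enzyme activated by double-stranded RNA, read 8.47, 13.5 and 14.8 FPKM in the controls and 3.76, 3.32 and 1.69 with NAM (-1.79, SE 0.27, adjusted p = 0.00563). ISG15, a ubiquitin-like protein, fell from 17.2, 14.3 and 11.2 to 5.52, 7.10 and 4.83 FPKM (-1.17, SE 0.20, adjusted p = 0.00848). IKBKE, a kinase of interferon and NF-kB signalling (-1.31), NFKBIZ, a nuclear regulator of NF-kB (-1.28), and PSMB10, an immunoproteasome subunit (-1.34), were robust falls, though 39.4% of the exon bases of PSMB10 overlap another gene. MX1 was nearly level (0.09), and IRF7 (0.87) and IFIT5 (0.62) rose, neither of them without any 1 of the controls or NAM replicate 3. The interferon list had 4 falls without any 1 of the controls or NAM replicate 3 and 14 without NAM replicate 2, and the NF-kB list 4, 2 and 2 falls without control replicates 1, 2 and 3 and 2 without NAM replicate 3.

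Signalling genes of the EGFR pathway split, 6 of 34 rising and 5 falling. EGFR did not pass (43.1 to 63.8 FPKM, then 53.8 to 85.9), nor did FOS and JUN (log2 fold changes -0.13 and 0.74), and ERBB2 fell by 0.62, a call kept only without NAM replicate 1 (adjusted p otherwise up to 0.164). ETV4, a factor induced by ERK, fell by 0.98 (adjusted p = 0.0502 without NAM replicate 3). SHC1, an adaptor of receptor kinases, fell from 98.8, 106 and 108 to 54.3, 37.9 and 36.4 FPKM (-1.25, SE 0.19, adjusted p = 0.00603), while GRB10, an adaptor that inhibits the insulin receptor and a target of mTORC1, read 0.751, 0.797 and 0.603 in the controls and 6.81, 3.36 and 7.35 with NAM (1.96, SE 0.24), having met the filter only through the NAM libraries. In the EGFR list 3 genes rose and 3 fell without control replicate 1, 2 and 1 without control replicate 2 or 3, 5 and 9 without NAM replicate 1, 8 and 3 without NAM replicate 2 and 4 and 0 without NAM replicate 3. Among 26 genes of apoptosis 4 rose and 2 fell, of which BMF, a BH3-only protein, was robust, and it fell (5.08 to 7.42 FPKM, then 2.30 to 2.73; -1.03). BCL2L11, which encodes the BH3-only protein BIM, rose by 0.71, not without NAM replicate 3 or either of control replicates 2 and 3 (adjusted p up to 0.0925). The apoptosis list had 2 rises without control replicate 1 and 0 without NAM replicate 3 or either of control replicates 2 and 3.

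**Figure D3:**
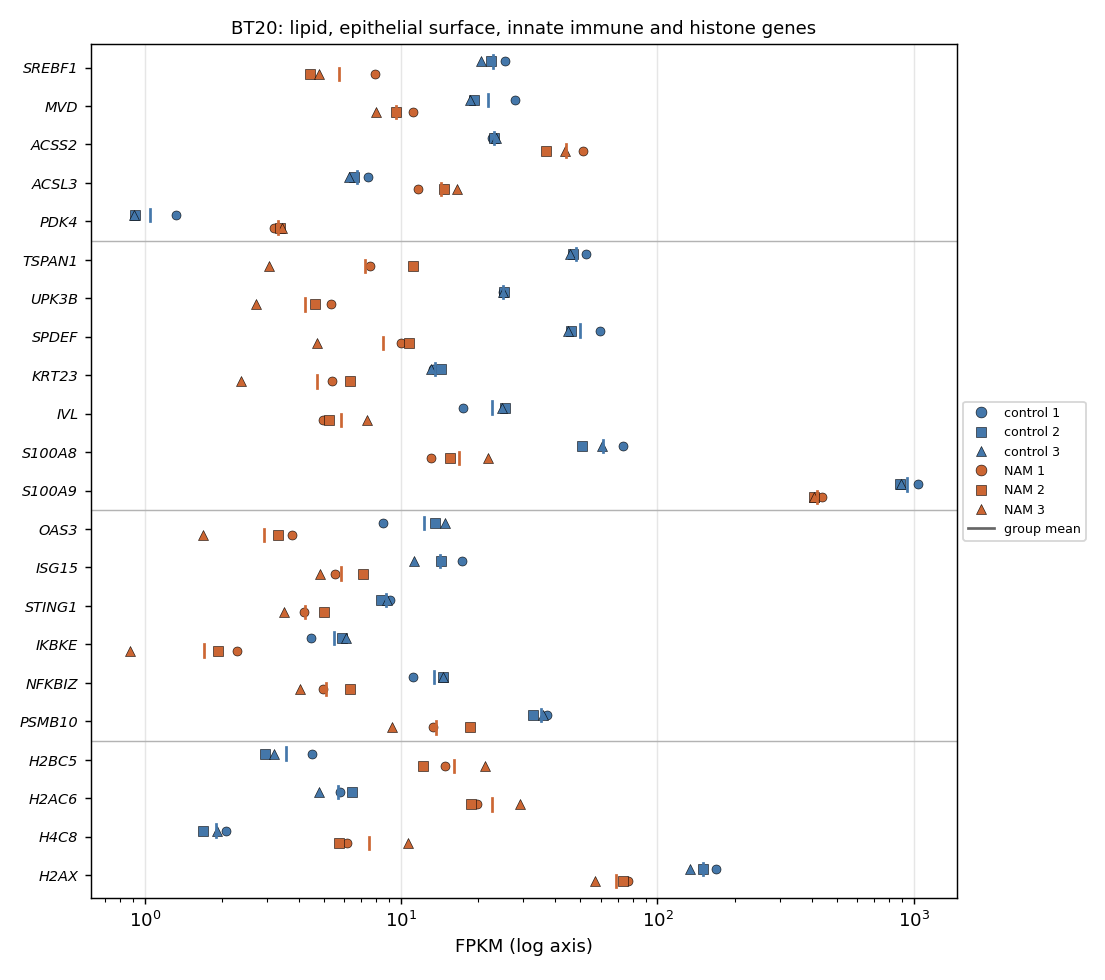
FPKM (log axis) of lipid, epithelial surface, innate immune and histone genes in the 3 control (blue) and 3 NAM (orange) BT20 libraries, with replicate numbers as marker shapes and group means as vertical bars. ACSS2, ACSL3, PDK4 and the histone genes H2BC5, H2AC6 and H4C8 lie higher with NAM and the others lower, TSPAN1 from 45.5 to 52.5 FPKM down to 3.05 to 11.2.

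Of 38 genes of RNA-binding and splicing proteins and paraspeckles 8 fell, and none rose. The paraspeckle RNA NEAT1, 1 of the 8, is noncoding and met the filter only through the controls, so 7 falls remain without it. HNRNPD, which binds AU-rich elements and marks mRNA for decay, read 25.6, 23.2 and 24.3 FPKM in the controls and 8.34, 8.0 and 4.66 with NAM (log2 fold change -1.70, SE 0.22, adjusted p = 0.00349). PSPC1 of the paraspeckles fell by 1.61 and the splicing factor SRSF2 by 1.33, both robust. The count was 4, 3 and 3 without control replicates 1, 2 and 3, 4 without NAM replicate 3 and 15 without NAM replicate 2. Most ribosomal protein genes did not pass: 66 of 75 cytosolic ones had a log2 fold change above 0 and their median was 0.27, but 2 rose, RPL28 and RPS12 (0.70 and 0.69), and neither did so without NAM replicate 3 or either of control replicates 2 and 3. Of 72 mitochondrial ribosomal protein genes 3 fell, of 35 genes of ribosome biogenesis 1 fell and of 31 proteasome genes 2 fell, and none of the 3 lists had a rise. Without any control or NAM replicate 3 at most 1 gene of each of these lists fell, and without NAM replicate 1 8 cytosolic and 10 mitochondrial ribosomal protein genes rose.

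Of 30 histone genes 4 rose and 6 fell. The robust rises H2BC5, H2AC6 and H4C8, replication-dependent histones on chromosome 6, read 2.95 to 4.51, 4.80 to 6.45 and 1.69 to 2.08 FPKM in the controls and 12.2 to 21.3, 18.8 to 29.1 and 5.72 to 10.6 with NAM (log2 fold changes 1.88, 1.81 and 1.48). H2AX, the replacement histone phosphorylated at DNA breaks, fell from 169, 150 and 134 to 76.5, 73.2 and 56.9 FPKM (-1.09, SE 0.16, adjusted p = 0.00536). Histone genes share near-identical sequence, so reads may be split between copies, and whether polyadenylated RNA was selected, which bears on these RNAs, is not given in the sources used here. Fewer than 6 histone genes fell without control replicate 1 (3), 2 (1) or 3 (1) or without NAM replicate 1 (3) or 3 (1), and 8 fell without NAM replicate 2.

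Lysosomal genes rose in 10 of 41 and fell in 2, and the 4 robust ones did not share a direction. LAMP3, a lysosomal membrane protein, went from 1.21, 1.6 and 1.51 to 18.3, 17.1 and 20.5 FPKM (log2 fold change 3.01, SE 0.15, adjusted p = 9.21e-05) and GPNMB rose by 1.34, while the hydrolases NAGLU and CTSS fell by 1.25 and 0.95, CTSS having met the filter only through the controls. The 2 robust autophagy genes were MAP1LC3B (1.07) and WIPI1 (1.03), of 9 that rose among 36. Lysosomal rises numbered 2 without any 1 of the controls or NAM replicate 3, and autophagy rises 2 and 3 without control replicates 2 and 3, 4 without NAM replicate 3, 6 without control replicate 1 and 15 without NAM replicate 1.

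**Figure D4:**
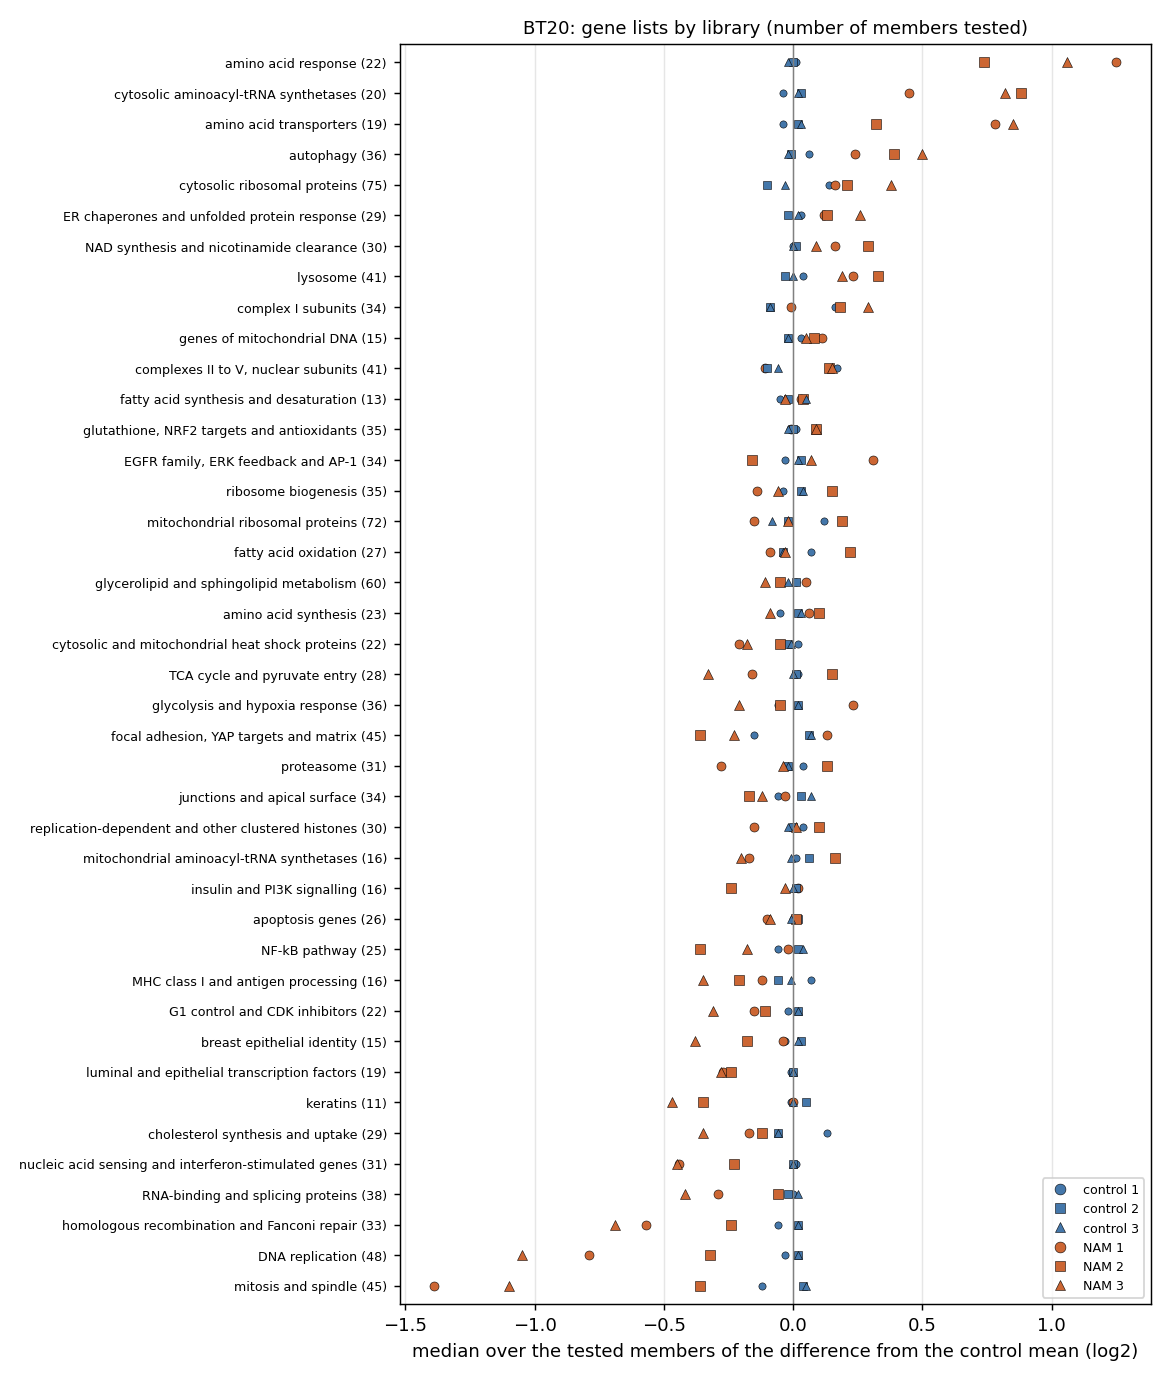
Median over the tested members of each gene list (number in brackets) of the difference from the control mean on the log2 scale, per BT20 library, in control (blue) and NAM (orange) libraries with replicate numbers as marker shapes. The amino acid response lies at 1.25, 0.74 and 1.06 in NAM replicates 1, 2 and 3, at the top, and mitosis at -1.39, -0.36 and -1.10, at the bottom of the lists drawn, which are those with 10 or more members tested.

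Among genes that no list held, ULBP1, a ligand of the natural killer cell receptor NKG2D, rose from 1.71, 1.90 and 2.01 to 8.93, 8.22 and 9.56 FPKM (log2 fold change 1.76, SE 0.14, adjusted p = 0.00114). NIBAN1, a stress-induced protein, read 0.249, 0.328 and 0.362 FPKM in the controls and 6.39, 5.25 and 9.43 with NAM (2.60, SE 0.19), and met the filter only through the latter. GAS5, a host RNA of snoRNAs that accumulates when translation slows, rose from 12.7 to 15.3 FPKM to 33.2 to 69.9 (1.72), and GAS5-AS1 with it (1.77). The strand setting of the counting is not given in the sources used here, so such an antisense pair cannot be told apart. The same holds for HSD17B1, which makes estradiol, and HSD17B1-AS1, which fell from 110 to 147 and from 225 to 299 FPKM to 32.8 to 50.3 and 60.6 to 94.1 (-1.64 and -1.72).

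Other robust falls were MIR205HG, the host RNA of miR-205, a microRNA of basal epithelium (21.2 to 22.9 FPKM, then 4.09 to 6.80; log2 fold change -1.96), TNNI2, a troponin subunit (8.41 to 12.1, then 0.970 to 1.93; -2.23), PLAAT2, a phospholipase of the HRASLS family (25.8 to 33.7, then 4.82 to 7.97; -2.11), and GCAT, an enzyme of threonine breakdown (8.41 to 9.73, then 0.955 to 2.27; -1.92). HDGF, a growth factor, fell from 223 to 262 FPKM to 104 to 134 (-0.94). TCEA1, an elongation factor of RNA polymerase II, and CREG1, a lysosomal glycoprotein, rose by 1.21 and 1.17, from 50.8 to 54.8 and 50.02 to 60.5 FPKM to 99.3 to 139 and 109 to 137.

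Whether BT20 responded differently from the other lines was tested as an interaction in a fit of all 18 libraries. BT20 and its medium cannot be told apart, since the other lines grew in DMEM. In separate viability assays of the study BT20 was the most sensitive of these lines to NAM. The study also found most BT20 cells positive for annexin V, a mark of apoptosis, at the dose and time used here. The same dose thus did not weigh equally on each line, and what part this has in the differences was not tested. The change with NAM differed from that of MDA-MB-468 in 966 of 17784 genes (5.43%) and from that of MDA-MB-231 in 950 (5.34%), and 230 genes called in BT20 differed from both on the same side, 103 that rose and 127 that fell. Of these, 90 (41 and 49) passed the filter in each of the other lines as well. The others were too low in at least 1 of them to be tested there, where the difference mostly restates the change in BT20. The contrasts share the BT20 libraries. Same-numbered control and NAM libraries deviated together in MDA-MB-468 (r = 0.71, 0.61 and 0.13) and in MDA-MB-231 (0.74, 0.62 and 0.72) but not in BT20 (0.02, -0.08 and 0.10). Replicates 2 and 3 also did so across numbers, as control 3 with NAM 2 in MDA-MB-468 (0.44) and control 2 with NAM 3 in MDA-MB-231 (0.69). In those lines replicate 1 thus stood against the others, which need not be a pairing by number. With replicate number as a block 2254 and 2893 genes differed, while with an FPKM of at least 1 asked of every library 137 and 178 did. Without control replicate 2 of BT20 627 and 518 genes differed, without control replicate 3 662 and 550 and without NAM replicate 3 723 and 562. Replicate 1 of MDA-MB-231 stood apart in both groups, and without its libraries, an alternative chosen after seeing the data, 1723 and 1258 genes differed. Differences are from this joint fit and fold changes from each line alone, so the former are not exact differences of the latter.

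In the amino acid response 9 of 22 genes differed from MDA-MB-468 and 5 from MDA-MB-231. CHAC1 rose by 2.37 on the log2 scale in BT20, against fold changes of 0.74 for MDA-MB-468 and 1.17 for MDA-MB-231 (differences 1.76 and 1.35, adjusted p = 0.0021 and 0.0159). DDIT4 rose by 2.0 in BT20, against -0.01 and 0.68 (differences 2.12 and 1.44, adjusted p = 0.00269 and 0.0353). GDF15 rose by 1.95 in BT20, against -1.0 in MDA-MB-468 (difference 2.89, adjusted p = 0.000259) and 1.35 in MDA-MB-231, where the difference did not pass (0.61, adjusted p = 0.402; 1.25 and 0.00731 without replicate 1 of MDA-MB-231). ATF4 differed from neither line (0.65 and 0.53, adjusted p = 0.0919 and 0.164), though it did from both without that replicate (0.62 and 0.70, adjusted p = 0.0319 and 0.0378). Of the cytosolic tRNA synthetases 7 of 20 differed from MDA-MB-468 and 3 from MDA-MB-231, and WARS1 from both (differences 2.1 and 1.43).

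Many of these genes started lower in BT20. In 1722 of 14937 genes tested (11.5%, with 1 gene for each symbol) all 3 BT20 controls lay below all 6 controls of the other lines, and this was so for 9 of 22 genes of the amino acid response, 10 of 19 amino acid transporters and 10 of 20 cytosolic tRNA synthetases, counts given as a description with no test. A low start was not particular to lists that rose. It held for 13 of 48 replication genes (27.1%), all 13 of which also lay below with NAM, and for 6 of 45 mitotic genes (13.3%). CHAC1 stood at 3.54 to 5.19 FPKM in the BT20 controls, 19.3 to 25.5 in those of MDA-MB-468 and 9.96 to 18.6 in those of MDA-MB-231, and with NAM at 26.5 to 29.5, 29.8 to 44.3 and 31.3 to 43.7. DDIT4 stood at 20.0 to 24.2 FPKM in the BT20 controls and 57.2 to 116 with NAM, below the controls of MDA-MB-468 (230 to 323) and MDA-MB-231 (120 to 180). Of the 9 response genes, DDIT4 was the only one whose NAM libraries in BT20 all remained below every control of the other lines.

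PSAT1 went with NAM from 43.0 to 49.1 FPKM to 193 to 213 in BT20, where the controls of MDA-MB-468 had 137 to 218 and those of MDA-MB-231 70.4 to 202 (differences in log2 fold change 1.90 and 1.87, adjusted p = 0.0448 and 0.0489). NIBAN1 differed by 2.26 and 2.32 (adjusted p = 0.0184 and 0.0175), and its controls in the other lines lay at 13.2 to 15.3 and 9.80 to 27.6 FPKM, above the NAM libraries of BT20 (5.25 to 9.43). GRB10, SLC3A2, HERPUD1 and MYC also had higher log2 fold changes in BT20 than in either line, with differences of 1.02 to 1.89. For MDA-MB-468 their fold changes were 0.08, 0.01, -0.44 and -0.50, and for MDA-MB-231 0.45, 0.13, 0.07 and -0.24.

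On the falling side some log2 fold changes were lower in BT20 than in either line. These were those of RECQL4 (differences -2.05 and -1.89), POLD1 (-1.53 and -1.68) and CDKN2C (-1.99 and -1.45). The same held for H2AX (-1.42 and -0.96), IDH2 (-1.01 and -1.02) and NAPRT (-2.02 and -1.61). Outside BT20 the fold changes of these genes ran from -0.06 to 0.25 for MDA-MB-468 and from -0.31 to 0.16 for MDA-MB-231. Of the 48 replication genes 9 differed from MDA-MB-468 and 2, POLD1 and LIG1, from MDA-MB-231, and of the 45 mitotic genes 5 and 0 did, with MCM2 differing from neither (adjusted p = 0.121 and 0.114). Over all genes of that fit 5.43% differed from MDA-MB-468 and 5.34% from MDA-MB-231. ISG15 fell in BT20 by 1.17, against fold changes of -2.32 for MDA-MB-468 and 0.17 for MDA-MB-231. It differed from MDA-MB-231 (difference -1.41, adjusted p = 0.0408), and from MDA-MB-468 only without replicate 1 of MDA-MB-231 (difference 1.05, adjusted p = 0.018).

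**Figure D5:**
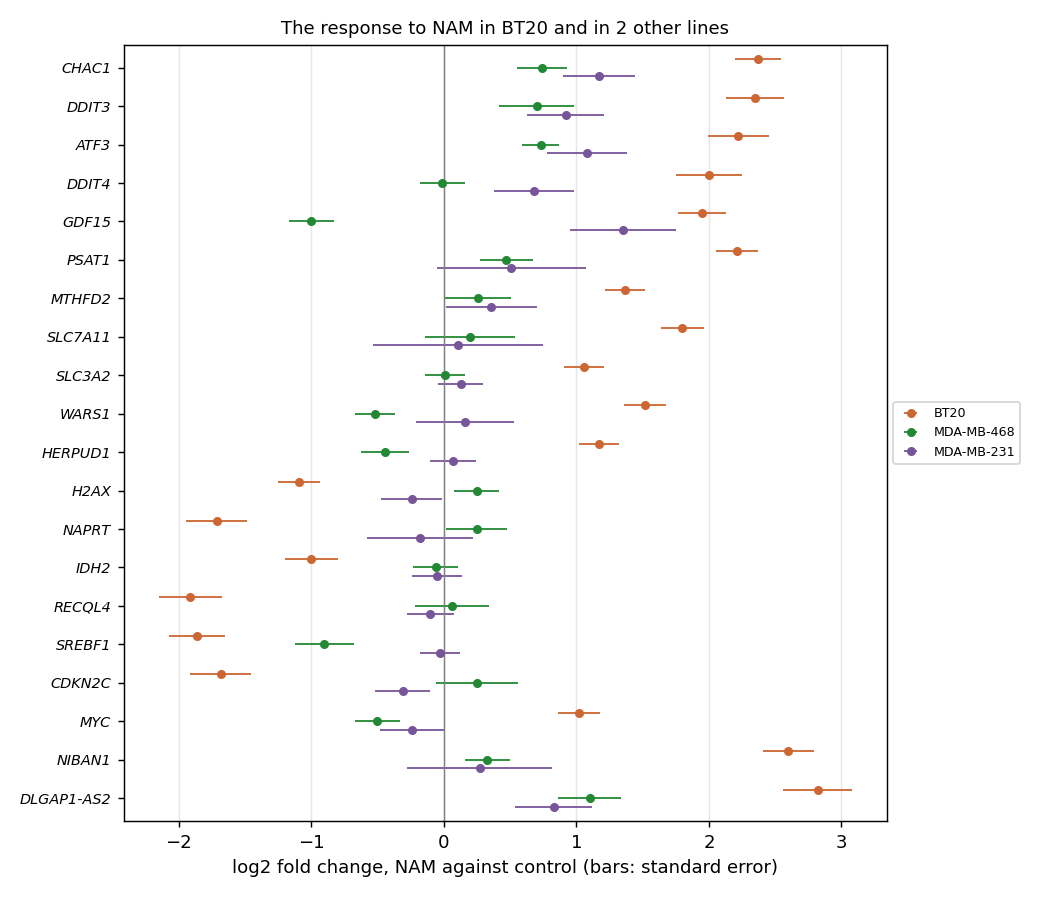
Log2 fold change of NAM against control with its standard error in BT20 (orange) beside MDA-MB-468 (green) and MDA-MB-231 (violet), 3 libraries a group, each line fitted on its own. BT20 lies farthest from 0 in every gene drawn, as for CHAC1 at 2.37 against 0.74 and 1.17. The genes drawn were chosen with earlier results of these data known, so this is no result for all genes. Among genes not drawn, PARP12 had -0.65 in BT20 and -1.16 in MDA-MB-468, and PDK4 had 1.09 in BT20 and 1.22 in MDA-MB-231.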

How the data were processed

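The RNA-seq libraries of BT20 and the 2 other lines (3 control and 3 NAM in each) were made with a TruSeq kit, a stranded total RNA kit by the labels and an RNA library kit by the study's methods, and sequenced on a HiSeq. By the submitters' processing notes reads were trimmed with cutadapt 2.8, aligned with TopHat2 2.1.1 to GRCh38.p13 and counted with HTSeq 0.11.3, and the authors deposited FPKM per gene in 1 table. The strand setting of the counting is not given in the sources used here. FPKM is not a count, but 99.9% of values above 0 came out as whole reads (tolerance 0.01 reads) for 39646 of 39935 genes above 0, which gave the depths, and a denominator of protein-coding reads.

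Groups and replicate numbers came from the sample labels. Genes that reached an FPKM of 1 in 3 or more of the 6 BT20 libraries were fitted on quantile-normalized log2(FPKM + 1) with limma 3.58.1 in R 4.3.3, 3 against 3, without a block, with Benjamini-Hochberg adjustment over all 14965 genes, and tables were made in Python 3.11.15 with pandas 2.3.3. Adjusted p-values named in the text are from limma, since an exact permutation test of 3 against 3 cannot go below 0.1 (two-sided). Interactions were fitted on all 18 libraries. Replicate numbers did not pair the BT20 libraries (correlations of same-numbered deviations 0.02, -0.08 and 0.10). Symbols, exon lengths and overlaps came from GENCODE 44.

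The comparison, its genes and the 44 gene lists were chosen with earlier results of these data known. Genes named were, per list, up to 5 robust members in each direction by size of change and every called member in the minority direction, or, where fewer than 2 were robust, up to 2 called and up to 3 with the highest FPKM. Added were the 30 largest robust rises and falls with the higher mean at 5 FPKM or more and no overlap, the 10 largest rises and falls of mean FPKM, the 12 genes with the largest interaction on the same side in both contrasts, and genes named in the study. Others were chosen after their values were seen, among them FGF21, SLC38A1, SESN2, NUPR1, PPP1R15A, STC2, EIF2AK4, CEBPB, ATF5, PHGDH, PSPH, ASNS, SLC7A5, SLC43A1, GARS1, YARS1, CDK1, CDKN1A, MCM7, NNMT, SIRT1, MX1, EGFR, FOS, JUN and GBP1. Some genes are not reported here.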

Additional observations from a re-analysis of the deposited data

Results flagged for a closer look

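These genes rose or fell in BT20 by a different amount than in another line, by the interaction test on all 18 libraries. Values are the log2 fold change of BT20 minus that of the other line, and the contrasts share the BT20 libraries.

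Of the amino acid response, DDIT3 differed by 1.77 from MDA-MB-468 and 1.55 from MDA-MB-231, DDIT4 by 2.12 and 1.44, CHAC1 by 1.76 and 1.35 and ATF3 by 1.6 and 1.31. From MDA-MB-468 GDF15 differed by 2.89, CEBPG by 1.58, TRIB3 by 1.58 and FGF21 by 1.44. Without replicate 1 of MDA-MB-231 GDF15 and TRIB3 also differed from that line (by 1.25 and 0.97, adjusted p = 0.00731 and 0.0345 by limma). STC2 differed by 1.10 from MDA-MB-231, where it lay at 0.115 to 0.365 FPKM in every library, so this mostly restates the change in BT20.

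PSAT1, of serine synthesis, differed by 1.90 and 1.87 and NIBAN1 by 2.26 and 2.32. DLGAP1-AS2, a long noncoding RNA, differed by 1.83 and 2.17 and ERICH2 by 3.08 and 1.85. The pseudogenes ENSG00000257951 (2.09 and 2.09) and ENSG00000258072 (1.88 and 1.88) were at 0 in the other lines, so the values are those of BT20.

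Lower log2 fold changes in BT20 were those of the helicase RECQL4 (-2.05 and -1.89), the long noncoding RNA ENSG00000265393 (-2.12 and -2.01) and ADIRF (-2.07 and -1.99). ADIRF itself changed by only -0.63 in BT20 and was not robust. Its fold changes elsewhere were 1.44 (MDA-MB-468) and 1.38 (MDA-MB-231), so most of its difference lies in those lines. The same direction held for involucrin IVL (-1.88 and -1.83), DMBT1 (-1.81 and -2.30) and the troponin TNNI2 (-1.81 and -2.24). In the other lines IVL lay at 0 to 0.027 FPKM, TNNI2 at 0 to 0.704 and DMBT1 at 0 to 1.19, so for these genes as well the values mostly restate the fall in BT20.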

How the results depend on the processing

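With a change of over 0.58 on the log2 scale also asked, 1066 genes were higher and 1216 lower with NAM in BT20. Leaving out 1 library gave 302 to 1708 higher and 399 to 1579 lower: 515 and 535 without control replicate 1, 302 and 399 without control replicate 2, 327 and 440 without control replicate 3, 1708 and 1579 without NAM replicate 1, and 350 and 413 without NAM replicate 3. With no filter on FPKM the counts were 484 and 361, and with controls 2 and 3 averaged (chosen after seeing the data) 326 and 428. The members called in the gene lists numbered 291, with 125 without the filter, 118 with averaged controls and 114 to 379 without 1 library (149, 114 and 123 without control replicates 1, 2 and 3 and 126 without NAM replicate 3). Differences from MDA-MB-468 and MDA-MB-231, 966 and 950, were 137 and 178 with the filter asked of every library, 637 and 545 with averaged controls, and 627 to 1152 and 518 to 1309 without 1 library. From MDA-MB-468 484 differed on recovered reads (limma-voom), and from MDA-MB-231 1529 without the filter. Without replicate 1 of MDA-MB-231 (both libraries, chosen after seeing the data) 1723 and 1258 differed. The cause was not tested.

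The numbers do not pair BT20 libraries. With replicate number as a block 1215 genes were higher and 1410 lower in BT20, 311 list members were called, and 2254 and 2893 differed between lines. Of 278 named genes, 270 kept direction and side of the threshold under the block, 1 gained and 7 lost the call. Over all alternatives, 2786 of 3197 values of called named genes kept the call and none reversed. The other pseudocounts, scalings and limma settings kept the counts over all genes and the total of list members called within 1.5 times. Counts of single lists could move more. Lysosomal rises went from 10 to 4 with median scaling, and falls in the ER list from 4 to 2 with a pseudocount of 0.1 or 0.5.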

Other observations

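ALDH1L2, the mitochondrial folate dehydrogenase that is the counterpart of ALDH1L1, lay below the filter in BT20, at 0.128, 0.109 and 0.11 FPKM in the controls and 1.53, 0.746 and 0.877 with NAM, and was not tested. All NAM libraries lay above the controls. The stress-induced thioredoxin inhibitor TXNIP rose (log2 fold change 1.54, adjusted p = 0.0094 by limma), a call lost without NAM replicate 3 (adjusted p = 0.0537). These genes were chosen after their values were seen.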
